A study of Homo sapiens with 2 samples.

Results

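Tight junctions are the uppermost belt of contacts between epithelial cells, where they seal the space between neighbours and set which ions and solutes may pass. Occludin and claudins cross the membrane, junctional adhesion molecules add immunoglobulin-type contacts, and the ZO proteins beneath the membrane bind their tails and link them to actin. In stratified squamous epithelium, such as that of the esophagus, functional tight junctions form in the upper living layers, although several of the proteins also occur below them. The genes described here are 9 members of this group: OCLN (occludin), MARVELD2 (tricellulin), CLDN1, CLDN4, CLDN7 and CLDN12 (claudins), F11R (junctional adhesion molecule A), TJP1 (ZO-1) and TJP3 (ZO-3). They were chosen by name, through the Entrez gene ID of each row, from 40392 genes, and each of the 9 had a value above 0 in both libraries.

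The samples were 2 libraries of total RNA from KYSE30, an established human line grown from a squamous cell carcinoma of the esophagus. The mock library came from stable transfectants that carry pIRES2-EGFP, a vector with a green fluorescent reporter. The RHCG library was made from stable transfectants with an expression vector for human RHCG, an ammonia transporter of the Rhesus glycoprotein family. The labels do not say whether each was a clone or a pool, whether both vectors share a backbone, or how long the cells had been kept. There was 1 library per group, so there was no replicate spread and no test between groups, and every difference below compares these 2 libraries. Values are RPKM, reads per kilobase of transcript scaled to sequencing depth, which can be compared between genes of different length, and paired values are given mock first. The transcript of RHCG itself was found where the labels place it, with 413 RPKM in the RHCG library and a listing of 0 in the other. The ratio is log2((RHCG + 1)/(mock + 1)) in RPKM, and a gene at 1 or more is called higher and at −1 or less lower. The scaling corresponded to about 18900000 mock reads and 22100000 RHCG reads, so that a transcript of 1 kb at 1 RPKM rested on about 18.9 and 22.1 reads. Intervals beside fold values are approximate 95% exact (Clopper-Pearson) intervals from these read numbers. They cover counting error only, not differences between cultures, clones or library preparations.

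Promoter sequences from RefSeq (GRCh38.p14) are shown for the genes with the highest ratios, OCLN, CLDN1 and TJP1, and for CLDN4, the most abundant one. Each run holds the 250 bases before the first start site that the table gives, 5′ to 3′ along the gene's strand. Capitals mark matches on either strand to CAGGTG (the E-box letters that SNAI and ZEB repressors can bind), TGANTCA (AP-1) and GGGCGG (GC box). The OCLN window lies at chr5:69492297-69492546 on the plus strand, the CLDN1 window at chr3:190322447-190322696 on the minus strand, the TJP1 window at chr15:29969050-29969299 on the minus strand and the CLDN4 window at chr7:73830746-73830995 on the plus strand.
OCLN: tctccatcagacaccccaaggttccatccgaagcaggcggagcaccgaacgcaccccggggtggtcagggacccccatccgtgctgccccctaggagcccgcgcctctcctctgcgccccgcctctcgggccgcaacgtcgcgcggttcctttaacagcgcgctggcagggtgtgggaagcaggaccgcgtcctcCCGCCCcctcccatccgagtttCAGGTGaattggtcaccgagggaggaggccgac
CLDN1: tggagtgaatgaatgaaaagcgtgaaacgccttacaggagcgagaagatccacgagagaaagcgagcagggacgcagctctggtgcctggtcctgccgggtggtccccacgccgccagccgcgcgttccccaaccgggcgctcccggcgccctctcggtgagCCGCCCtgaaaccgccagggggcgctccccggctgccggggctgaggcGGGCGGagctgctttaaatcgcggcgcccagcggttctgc
TJP1: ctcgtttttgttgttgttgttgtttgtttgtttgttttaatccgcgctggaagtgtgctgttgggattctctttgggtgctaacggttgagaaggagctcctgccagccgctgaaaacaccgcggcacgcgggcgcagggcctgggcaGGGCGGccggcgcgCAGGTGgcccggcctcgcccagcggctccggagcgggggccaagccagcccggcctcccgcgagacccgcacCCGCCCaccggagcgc
CLDN4: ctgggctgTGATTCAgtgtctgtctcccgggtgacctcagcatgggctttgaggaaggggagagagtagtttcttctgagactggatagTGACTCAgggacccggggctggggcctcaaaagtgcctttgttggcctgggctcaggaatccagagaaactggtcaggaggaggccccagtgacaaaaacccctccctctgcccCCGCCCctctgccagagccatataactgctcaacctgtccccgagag
The OCLN window held 1 E-box match, which began 33 bases before the start site, and the TJP1 window held 1 that began 88 bases before it. The CLDN1 and CLDN4 windows held no match to those letters. GC box matches stood in all 4 windows, at 88 and 40 bases before the CLDN1 start, and CLDN4 alone of the 4 held AP-1 letters, at 242 and 161 bases before its start. Of 35116 windows of this length in the table, 17.5% held an E-box match, 6.57% an AP-1 match and 42.6% a GC box match. The table held 14 windows for 8 of the 9 genes. Of the 14, 5 held an E-box match, 1 an AP-1 match and 10 a GC box match. The 5 include a second OCLN window, with a match that began 133 bases before its own start site. The other TJP1 windows, not shown here, held no E-box match. None of the 14 held AACNGGTT, letters bound by grainyhead-like factors, against 1.49% of all windows. The motifs do not overlap each other in these windows, and a match of letters is a description of sequence only.

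All but 1 of the 9 genes had more RPKM in the RHCG library than in the mock library, and OCLN and CLDN1 were higher by the 2-fold rule. OCLN stood at 3.36-fold, CLDN1 at 2.63-fold and TJP1 at 1.90-fold, while CLDN4, CLDN7, CLDN12, MARVELD2 and F11R had log2 ratios between 0.15 and 0.50. TJP3 alone was lower in RHCG cells, at 0.859-fold. Among the 12857 genes with a listed value in at least 1 library, 2.74% were called higher and 3.30% lower, against 2 of 9 and 0 of 9 here. Some of those genes were listed at 0 in the other library, where the floor of 1 RPKM limits the ratio. At a mean of at least 5 RPKM, 286 of 8657 genes were higher and 296 lower. A log2 ratio above 0 was found for 49.5% of all 12857 genes tested and for 8 of the 9. The median log2 ratio was 0.49 over the 9 genes and −0.01 over all genes tested, whose central 95% lay between −1.12 and 1.03. The 9 genes were picked with earlier results of these data known, so their counts are given as a description. In bulk RNA, fewer cells that express a gene and less RNA per cell cannot be told apart.

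**Figure D1:**
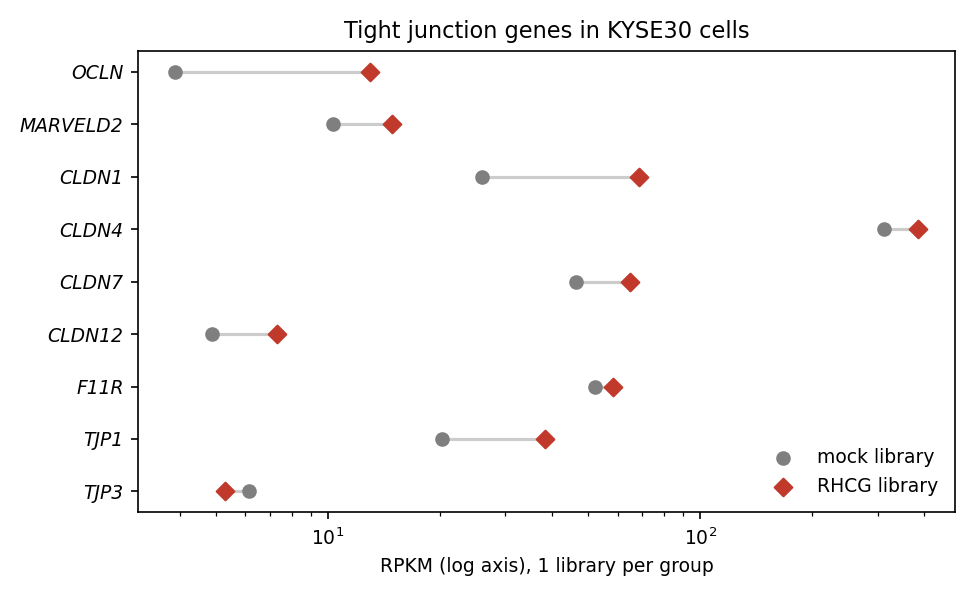
RPKM of the 9 tight junction genes on a log axis, with a grey circle for the mock library and a red diamond for the RHCG library. OCLN, CLDN1 and TJP1 have the widest gaps, CLDN4 lies far to the right of the others in both libraries, and TJP3 is the gene whose mock value is the higher of its pair.

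OCLN encodes occludin, the founding MARVEL-domain protein of the junction. Its level was 3.89 RPKM in mock cells and 13.04 RPKM in RHCG cells, from about 498 and 1946 reads. The RHCG library was thus the higher one, with a log2 ratio of 1.52 and a fold of 3.36 (counting interval 3.04 to 3.71). In the mock library OCLN was the least abundant of the 9 genes, at rank 8626 of 11201 protein-coding genes with a listed value, and in the RHCG library it ranked 4920 of 10968. Its ratio was the 75th highest among the 12857 genes tested. OCLN has a partial copy, the transcribed pseudogene OCLNP1, on the same chromosome. Of the 6805 different 50-base words in OCLN transcripts of GENCODE 29, 7.79% also occur in OCLNP1 transcripts. OCLNP1 had 5.57 RPKM in mock cells and 22.5 RPKM in RHCG cells (log2 ratio 1.84), so the copy had the same direction. How reads that match both were assigned is not given in the sources used here, and the OCLN level is uncertain to that extent.

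MARVELD2 encodes tricellulin, the MARVEL protein that gathers where the corners of 3 cells meet, and lies next to OCLN on chromosome 5. Its level was 10.3 RPKM in mock cells and 14.9 RPKM in RHCG cells, 1.44-fold (1.33 to 1.56). It was not called, and its log2 ratio of 0.49 was the median of the 9 genes. The MARVELD2 level was 2.66 times that of OCLN in the mock library and 1.14 times in the RHCG library. The third member of the MARVEL family, MARVELD3, was at 4.32 and 3.58 RPKM, a log2 ratio of −0.21. LSR, the angulin that recruits tricellulin to cell corners, was at 97.5 and 112 RPKM (log2 ratio 0.20), and the related ILDR1 and ILDR2 were listed at 0 in both libraries. A listing of 0 does not separate an absence of reads from a level of up to 1 RPKM or from a gene left uncounted: GLUL and HSPH1, active in most cells, also had 0 in each table. None of the 2 measured genes among these 4 was called.

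Claudins form the strands themselves, and the mix of claudins sets the tightness and ion selectivity of the seal. CLDN1, the claudin whose loss opens the epidermal barrier, stood at 26.0 RPKM in mock cells and 68.4 RPKM in RHCG cells, from about 1807 and 5526 reads. Its fold was 2.63 (2.49 to 2.77), with a log2 ratio of 1.36. It ranked 2724 among listed protein-coding genes of mock cells and 940 among those of RHCG cells. CLDN4, a claudin that limits the passage of sodium in many epithelia and serves as a receptor for a clostridial enterotoxin, was at 311 and 384 RPKM. That put CLDN4 at rank 130 and rank 68, the most abundant of the 9 in both libraries. Its fold of 1.24 had a narrow counting interval, 1.22 to 1.26, since it rested on about 27674 and 39867 reads. CLDN7, which binds the adhesion protein EPCAM, was at 46.3 and 65.0 RPKM, 1.40-fold (1.33 to 1.48). CLDN12, a claudin without the tail motif by which other claudins bind ZO proteins, was at 4.87 and 7.32 RPKM, a log2 ratio of 0.50 (0.38 to 0.63). In order of level the claudins ran CLDN4, CLDN7, CLDN1 and CLDN12 in the mock library, and CLDN1 and CLDN7 changed places in the RHCG library.

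Of all 24 claudin genes on the list, 7 had a listed value in at least 1 library and 17 were listed at 0 in both, among them the pore-forming CLDN2, the endothelial CLDN5 and the gastric CLDN18. Besides the 4 members, CLDN3 was at 1.56 and 4.73 RPKM, CLDN9 at 4.09 and 8.48 RPKM and CLDN15 at 4.63 and 5.97 RPKM. All 7, of which 4 are the members already counted above, thus had more RPKM in the RHCG library, beside 49.5% of all genes tested. CLDN3 was called higher, with a log2 ratio of 1.16 on about 38 reads in the mock library and a fold of 3.03 whose interval ran from 2.08 to 4.43. With the shift of its chromosomal neighbours removed CLDN3 was at 0.84, short of the threshold. CLDN9 had a fold of 2.07 (1.72 to 2.51) and a log2 ratio of 0.90 with 1 RPKM added to both levels, so that it was not called; with 0.1 RPKM added the ratio was 1.04. Summed over the 7 genes, the claudin level was 398 RPKM in mock cells and 544 RPKM in RHCG cells, a ratio of 1.37. CLDN4 held 78.0% of this sum in mock cells and 70.6% in RHCG cells, and CLDN1 held 6.54% and 12.6%. CLDN7 held 11.6% and 12.0%, and none of the other 4 passed 2% in either library. CLDN4, although it had the smallest fold of the 7, made up 50.4% of the 146 RPKM by which the sums differed, and CLDN1 contributed 42.3 RPKM. The level of CLDN4 was 11.9 times that of CLDN1 in the mock library and 5.62 times in the RHCG library. Without CLDN4 the summed RPKM was 87.5 and 160.

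**Figure D2:**
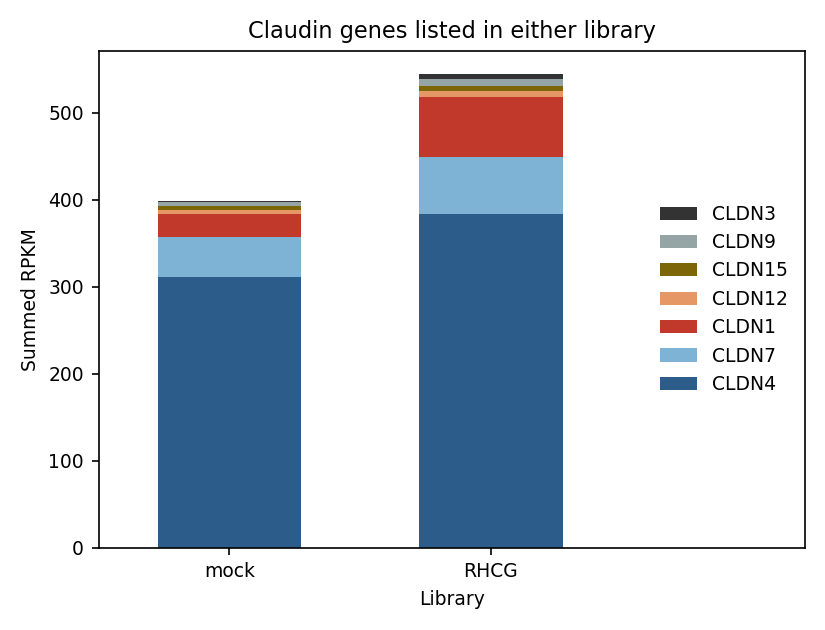
Stacked bars of RPKM for the 7 claudin genes with a listed value, 1 bar per library, starting at 0. CLDN4 fills most of both bars, 78.0% of the mock bar and 70.6% of the RHCG bar, and the CLDN1 band widens from 26.0 to 68.4 RPKM.

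F11R encodes JAM-A, an adhesion molecule that brings the polarity protein PAR3 to young junctions. Its level was 52.2 RPKM in mock cells and 58.2 RPKM in RHCG cells, 1.11-fold (1.07 to 1.16), the value closest to 1 among the 9. Of its 5211 words of 50 bases, 34.7% also occur in AL591806.3, a gene model that GENCODE annotates apart from it. Deposited genes were named here by RefSeq symbols, which do not include that name, so whether the model has a deposited value could not be seen. How reads that match both were assigned is not given, so whether the F11R level was affected is not known. Transcripts of related immunoglobulin proteins had low values or were listed at 0. CXADR, the coxsackievirus and adenovirus receptor, was at 3.36 and 2.48 RPKM, and JAM3 was listed at 0 and at 1.10 RPKM. The other 5 genes of the list were listed at 0 in both libraries.

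The ZO scaffolds carry the claudin strands on their PDZ domains. TJP1 stood at 20.2 RPKM in mock cells and 38.4 RPKM in RHCG cells, from about 4307 and 9546 reads. Its fold was 1.90 (1.84 to 1.97) and its log2 ratio of 0.90 lay under the threshold, as the nearest of the uncalled members to it. TJP3 was at 6.14 and 5.28 RPKM, a fold of 0.859 with a counting interval of 0.756 to 0.975. TJP1 and TJP3 therefore did not share a direction: TJP1 was above 1.5-fold, a size that 11.3% of all genes tested reached upward, and TJP3 lay below 1. TJP1 was the more abundant of the pair in both libraries.

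Among the 11 other scaffold genes, 9 were measured, 0 were called in either direction, and their median log2 ratio was −0.03. AMOTL2 and AMOTL1, angiomotin-like proteins that also hold YAP, had levels of 165 and 205 RPKM (AMOTL2) and 36.0 and 53.0 RPKM (AMOTL1). CGN, which encodes cingulin and tethers the exchange factor GEF-H1 at junctions, was at 28.8 and 37.0 RPKM. Of 14 polarity genes 13 were measured, with a median of 0.41, 2 called higher and 0 lower. These were DLG1, a basolateral scaffold of the Scribble complex, at 21.3 and 50.2 RPKM (log2 ratio 1.20), and PARD6A, a subunit of the PAR complex, at 1.29 and 4.36 RPKM (1.23, on about 36 reads in the mock library). DLG1 lost its call with the neighbour shift removed (0.91), and PARD6A averaged too little to be tested at a minimum of 5 RPKM. The most abundant polarity genes, LLGL1 and LLGL2, went apart, with 92.4 and 78.5 RPKM and with 52.0 and 70.4 RPKM. Of 15 genes for signalling and traffic at the junction 13 were measured, with a median of 0.26, and ARHGEF2 was called. ARHGEF2 encodes GEF-H1 itself and was at 27.7 and 75.5 RPKM (log2 ratio 1.41, 2.73-fold, 2.64 to 2.82). The abundant RHOA and ARHGEF18 of that list had 110 and 97.9 RPKM (RHOA) and 44.4 and 55.1 RPKM (ARHGEF18).

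None of the 6 genes for junction turnover was called; SPINT2, a protease inhibitor, was at 463 and 492 RPKM. EPCAM was at 66.5 and 120 RPKM, a log2 ratio of 0.84. None of the 10 adherens junction genes was called either, and their median was 0.04, with 5 above 0 and 5 below. CTNNA1 and CTNNB1, the catenins that join cadherin to actin, had 126 and 108 RPKM (CTNNA1) and 101 and 65.4 RPKM (CTNNB1), and CDH1, E-cadherin, was at 76.5 and 84.7 RPKM. Over all 87 other junction genes in these 8 lists, 58 were measured, 4 were called higher and 0 lower, with a median log2 ratio of 0.17. The share called higher among all genes tested was 2.74%.

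**Figure D3:**
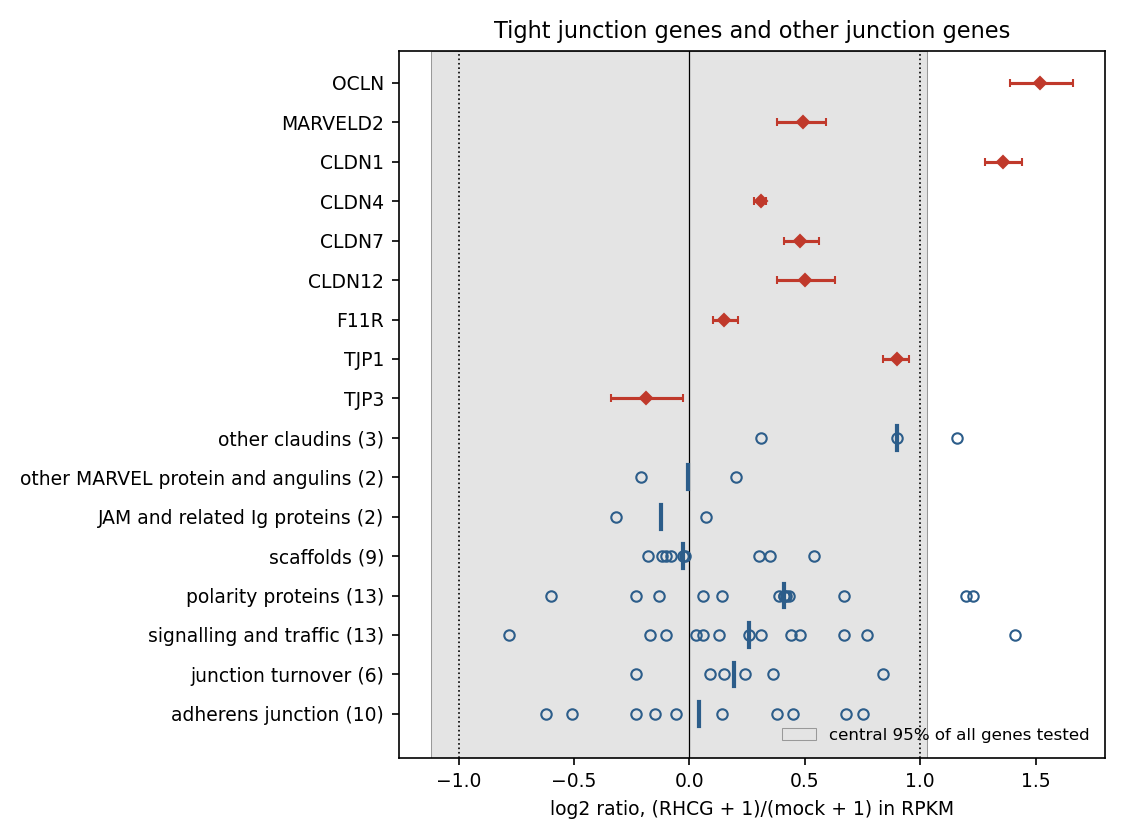
Log2 ratios of the 9 tight junction genes (red diamonds, bars for approximate 95% counting intervals) and of the other junction genes by list (open circles, a vertical mark at each median, the number measured in brackets). The grey band holds the central 95% of all genes tested and dotted lines mark the 2-fold rule; OCLN and CLDN1 lie to the right of both, TJP1 at 0.90 lies inside.

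Regulators of epithelial genes were read from 2 further lists. Of 5 measured repressors SNAI2, which binds E-boxes of junction genes, was called lower, at 15.9 RPKM in mock cells and 6.98 RPKM in RHCG cells (log2 ratio −1.08). That is 1 of 5, where 3.30% of all genes tested were called lower. Of the 5, 4 lay below 0, among them SNAI3, whose ratio of −0.25 is set by its listing of 0 in the RHCG library; 49.5% of all genes tested lay above 0. TWIST1 was at 9.53 and 5.75 RPKM, TWIST2 at 7.81 and 4.78 RPKM, and ZEB1 and ZEB2 were listed at 0 in both libraries. Of 10 measured epithelial factors GRHL1 was called higher, at 3.67 and 10.3 RPKM (1.27), and 0 were lower, beside 2.74% and 3.30% of all genes tested; 6 of the 10 lay above 0 and 4 below. The GRHL1 ratio was 0.88 with the neighbour shift removed, under the threshold. GRHL2, the other grainyhead-like factor with an abundant transcript, was at 45.0 and 32.7 RPKM (−0.45), and ELF3 was at 88.5 and 85.8 RPKM. ESRP1, an epithelial splicing regulator, was at 51.4 and 82.6 RPKM. Whether these differences bear on the tight junction genes was not tested.

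The median ratio of the genes around each member differed with the location, from −0.22 to 0.46, so each was set beside its neighbours, in the gene order of RefSeq. OCLN had a log2 ratio above all 50 nearest measured protein-coding genes, whose median was 0.40 and of which 37 lay above 0. The highest of them was ERBIN, at 1.35. MARVELD2 lay close to the same median, and 20 of its 50 neighbours were above it. On the other side of OCLN, GTF2H2C was at 4.27 and 4.57 RPKM, and beyond MARVELD2 RAD17 was at 3.77 and 5.88 RPKM. CLDN1 likewise stood above all of its 50 neighbours, whose median was 0.23. The highest of those was the adjacent gene IL1RAP, a receptor subunit for interleukin-1, at 7.06 and 16.7 RPKM (1.13), while P3H2 on the other side was at 15.1 and 15.7 RPKM. TJP1 exceeded all 33 measured genes in its window on chromosome 15, of which 8 precede it, as no more measured genes lie on that side. The median of the 33 was −0.14, and its flanking genes NSMCE3 and ARHGAP11B had log2 ratios of −0.50 and −0.29.

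CLDN4 and CLDN12 lie on chromosome 7 among genes with medians of 0.35 and 0.46. For CLDN4 28 of 50 neighbours had a higher ratio and for CLDN12 22 of 50. CLDN4 sits between CLDN3 (1.16) and METTL27 (0.49), and CLDN12 between GTPBP10 (0.44) and CDK14 (−0.04). CLDN12 shares 12.6% of its 50-base words with other genes, with 4.22% in GTPBP10 and 2.14% in CDK14. CLDN7 shares 8.25% of its words with the GENCODE gene AC003688.1, so the levels of both claudins are uncertain to that extent. CLDN7 went against its surroundings: its log2 ratio of 0.48 was exceeded by 2 of 50 neighbours, whose median was −0.14, and ELP5 and EIF5A beside it were at −0.11 and −0.32. TJP3 did not stand apart from its stretch of chromosome 19, with a median of −0.22 and with PIP5K1C and APBA3 at −0.33 and −0.22. In RefSeq ELP5 overlaps CLDN7 and APBA3 overlaps TJP3, and whether the counting used strand is not given, so reads in the overlaps cannot be assigned to one of the pair. F11R was at 0.15 against a median of −0.03, between NCSTN (0.18) and TSTD1 (0.19). With the median of the 51 nearest genes removed, OCLN was at 1.12, CLDN1 at 1.12 and TJP1 at 1.05, all past the threshold. CLDN4, CLDN12, MARVELD2 and TJP3 were then between −0.04 and 0.08, CLDN7 was at 0.62, and the median of the 9 was 0.17.

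**Figure D4:**
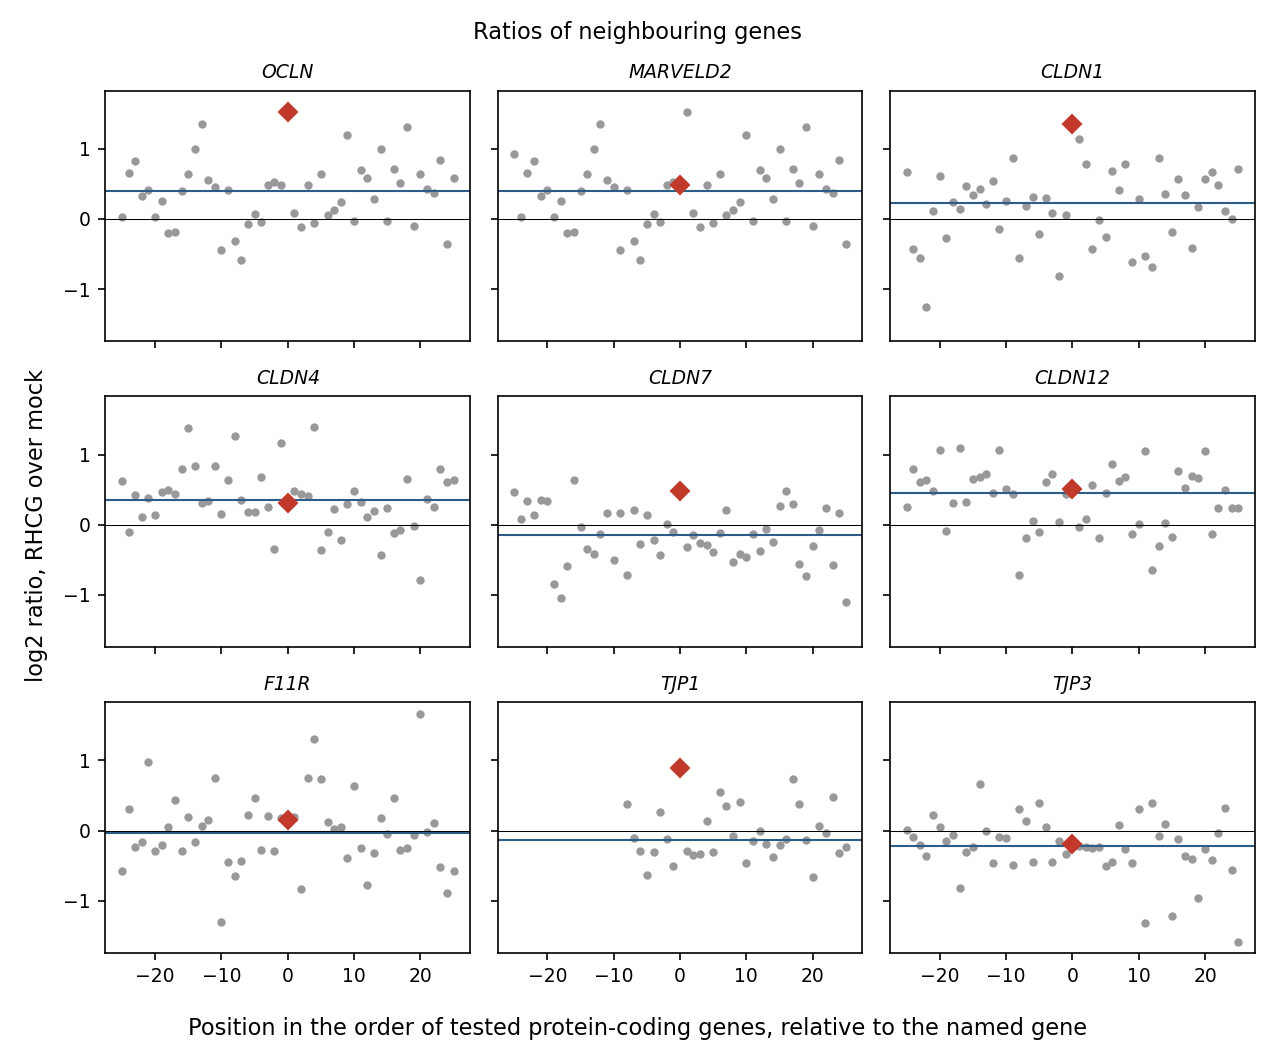
Log2 ratio of each tight junction gene (red diamond) and of up to 25 measured protein-coding genes on each side of it (grey dots), against their order on the chromosome, with a blue line at the median of the neighbours. OCLN, CLDN1 and TJP1 lie above every dot of their panels, CLDN7 above all but 2, and CLDN4, CLDN12, MARVELD2 and TJP3 lie near the blue line.

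The labelled cell type was checked on marker lists. Of 10 squamous keratinocyte markers 9 were measured, 2 were lower (KRT6A, whose sequence is close to other keratin 6 genes, at 38.8 and 3.51 RPKM, and KRT13, at 407 and 164 RPKM) and KRT5 was listed at 0 in both libraries. Of the 9, 6 had ratios below 0 and 3 above it: DSG3 (0.76), KRT14 (0.27) and KRT4 (0.11). Among all genes tested 3.30% were called lower and 49.5% lay above 0. The summed level was 802 RPKM in mock cells and 421 RPKM in RHCG cells, and KRT13 alone made up 63.7% of the difference. The simple-epithelium keratins KRT8 and KRT18 had 2197 and 1680 RPKM (KRT8) and 1810 and 2194 RPKM (KRT18). With KRT19, which was lower (−1.05, and −0.97 with the neighbour shift removed), they made up nearly all of the summed level of the simple columnar list, 5778 and 4733 RPKM, in which 7 of 12 genes were listed at 0 in both libraries, VIL1 and CDX2 among them. Fibroblast, endothelial and leukocyte markers summed to 8.97 and 6.90, to 16.7 and 17.2, and to 15.4 and 8.89 RPKM. Of these lists 7, 9 and 9 of 10 genes were listed at 0 in both libraries, including DCN, PECAM1, CDH5 and PTPRC. The squamous markers thus had a median log2 ratio of −0.72 beside 0.49 for the tight junction genes, and the part of such a shift in the tight junction values was not tested.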

How the data were processed

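Total RNA was depleted of ribosomal RNA and made into Ion Torrent libraries, per the labels' protocols. Per the submitters' processing notes, bedtools 2.25.0 and the build hg19 were used; which aligner and counting method were used is not given in the sources used here. Each deposited table holds log2 values of RPKM as the authors made them, under a column headed RPKM, with none below 0. Of 40448 rows, those with a copy suffix were summed to 40392 Entrez genes, and RefSeq symbols matched 38047. Genes listed at 0 were set to 1 RPKM. Genes with a listed value in at least 1 library were tested against the 2-fold rule, with no p-value. A planned minimum mean of 1 RPKM removed none of them, since it was applied after that floor. Depth was recovered from small RNA genes: the unlogged value times gene length fell on whole multiples of 1 constant per library (52.8 and 45.3), within 0.002 reads for 24.2% (44 of 182) and 37.0% (64 of 173) of values under 20 reads, so counts themselves could not be recovered. Approximate reads used GENCODE 29 exonic lengths, which 97.8% of tested genes had. The design allowed for counts and for RPKM, and its form for RPKM was used.

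The members, lists, rules and tests were chosen with earlier results of these data known. Named genes are the 9 members, called genes and the 2 most abundant of each list of other junction genes, the measured protein-coding gene on either side of a member, and RHCG; 1 gene that this rule names is not reported here. Genes of the regulator and marker lists, EPCAM, CDH1 and others with low values were named after their values were seen. CGN and ARHGEF18, neither called nor among the 2 most abundant of their lists, are also named outside that rule. With 2 libraries a pattern is a single ratio, so no genes are named as most alike. The rule was tested on simulated data. Coordinates are those of GRCh38.p14 in RefSeq, not of the authors' build. Software was Python 3.11.15 with pandas 2.3.3, numpy 2.4.6, matplotlib 3.10.9 and scipy 1.17.1.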

Additional observations from a re-analysis of the deposited data

How the results depend on the processing

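No paired analysis was possible because each group had a single library, which also means that none can be omitted. OCLN and CLDN1 stayed past 2-fold with a pseudocount of 0.1 RPKM, with both other scalings and with the neighbour shift removed. The filters, the row choice and the value set for genes listed at 0 repeated their main ratios, 1.52 and 1.36, by construction. A 1.5-fold threshold cannot test a 2-fold call. Across all 9 alternatives 115 values of the members and of the counts stayed within their counting interval or 1.5 times their count. The other 19 did not, and part of the 115 was fixed in advance. With the neighbour shift removed the log2 ratios were 1.12 for OCLN, 1.12 for CLDN1, 1.05 for TJP1, 0.62 for CLDN7, 0.08 for MARVELD2, 0.04 for CLDN12, 0.03 for TJP3 and −0.04 for CLDN4, and the median was 0.17. The sign of CLDN4 and of TJP3, neither of which was called, turned there. That setting left 2 other junction genes higher, ARHGEF2 (1.46) and PARD6A (1.22), with DLG1 at 0.91 and CLDN3 at 0.84. It also put GRHL1 at 0.88 and KRT19 at −0.97. The 9 called genes that are not members were run under the 8 alternatives that change a ratio or a filter. Of these values 66 stayed past the threshold, the 4 named here did not, 2 were not tested and 0 turned sign. For these genes too, the filters, the row choice and the value set for genes listed at 0 repeated the main ratio or left the gene untested. Values kept there were fixed in advance and are no sign of stability. OCLN was at 1.72 with a pseudocount of 0.1 RPKM, which gave 533 higher and 673 lower of all genes in place of 352 and 424. A threshold of 1.5-fold, looser by construction, gave 1447 and 1481 of all genes, 3 members higher (TJP1 added) and 11 higher and 3 lower of the other junction genes. A mean of at least 5 RPKM left 2 of those higher, since CLDN3 and PARD6A were no longer tested. With genes listed at 0 set to 0 RPKM 1 of them was lower, PARD6G, at 2.04 RPKM in the mock library and listed at 0 in the RHCG library. Under both other scalings, which shifted all genes by −0.007 and −0.010 on the log2 scale, the median of the members was 0.48. Depth limits the genes with few reads, CLDN3 and PARD6A, more than the members, and 1 library per group limits all of them.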
